A study of Mus musculus with 16 samples.

Results

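The comparison is between livers of LKO mice, which lack Arglu1 in hepatocytes, and livers of WT mice, both fed a high-fat diet (HFD, TD. 88137). It takes the 8 libraries that the labels assign to LKO HFD and WT HFD, 4 in each group, of 16 libraries in the series, and describes all 14434 genes with enough reads to be tested. All mice were female, were kept on chow until 9 months of age and then received HFD for 12 weeks. The other 8 libraries came from LKO and WT mice of the same sex and age that stayed on chow, and they entered the estimate of spread and the comparison of diets. The strain, the Cre driver, the deleted exons and the number of animals behind a library are not given in the sources used here. Errors and p-values therefore measure the spread between libraries, which may be technical.

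Arglu1 encodes a nuclear protein rich in arginine and glutamate that binds RNA, takes part in alternative splicing and acts as a coactivator of nuclear receptors, among them the glucocorticoid and oestrogen receptors. Hepatocytes supply most of the RNA of a liver sample, including that of secreted plasma proteins and of the enzymes that handle lipids, bile acids and drugs. Under a high-fat diet these cells take up, store and export more lipid. RNA was extracted from whole liver, so that hepatocytes and all other liver cells contribute, and fewer cells of a type cannot be told apart from less RNA per cell.

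Arglu1 itself (ENSMUSG00000040459.11, chromosome 8, 8665075 to 8690521, minus strand, mm10/GRCm38) was read first, since it checks the labels. Its level, in reads scaled to library size (CPM), was 40.3, 43.3, 41.4 and 43.9 in WT HFD replicates 1 to 4 and 13.4, 15.4, 16.6 and 16.7 in LKO HFD replicates 1 to 4. All LKO libraries lay well below all WT libraries, and the LKO level was 0.368 of the WT level (log2 fold change -1.44, SE 0.093, edgeR adjusted p = 1.34e-08). Which exons the remaining reads come from, and from which cells, was not tested.

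The 8 libraries held 19158827 to 24667513 counts each. A principal component analysis separated the genotypes on the first axis (50.7% of the variance; WT at -36.7 to -28.1, LKO at 30.8 to 36.5). On the second axis (16.2%) WT HFD replicate 2 stood apart at -36.8, against -6.52 to 22.7 in the other WT libraries. Among the WT HFD libraries it also had the highest level of several lipogenic and interferon-stimulated genes (Fasn, Ifit1 and Isg15 among them), and results that it decides are given with and without it. More genes were detected in LKO (18615 to 18974) than in WT libraries (18071 to 18323). That summary has the smallest p that 4 against 4 libraries allow (2-sided exact permutation test, p = 0.0286), and 0.133 after Benjamini-Hochberg adjustment over 14 library summaries.

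Genes differed broadly between LKO and WT livers under HFD, and most of the large differences were rises. At a Benjamini-Hochberg adjusted p below 0.05 in edgeR's quasi-likelihood test, 2583 of 14434 genes (17.9%) were called, of which 1491 (10.3%) were higher and 1092 (7.57%) lower in LKO. Among them 573 were at least 2-fold higher and 124 at least 2-fold lower. The median log2 fold change over all genes tested was -0.01, and 49.2% of genes had a positive value. In 4008 genes (27.8%) the 4 WT and 4 LKO libraries did not overlap, and 2419 of these were called. The number of calls was 2320 without WT HFD replicate 2.

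**Figure D1:**
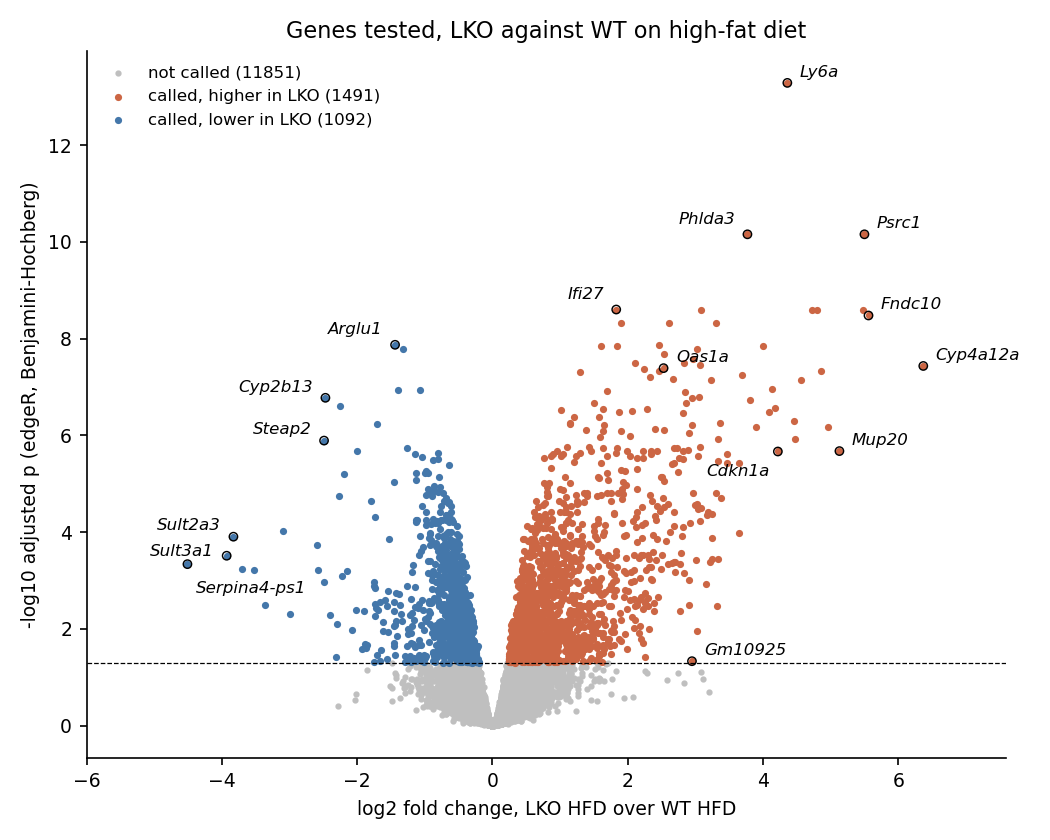
Log2 fold change of LKO over WT on HFD (horizontal axis) against the -log10 adjusted p of edgeR (vertical axis) for 14434 genes, where each point is a gene and the dashed line marks an adjusted p of 0.05. The 1491 genes called higher reach 6.37 (Cyp4a12a), and the 1092 called lower reach -4.51 (Serpina4-ps1).

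The 15 genes with the largest rises, which were chosen among genes without overlap between groups, started from different levels in WT liver. Cyp4a12a, a fatty acid hydroxylase that male livers normally express, stood at 0.181 to 0.323 CPM in WT and at 29.9, 23, 11.7 and 16.1 CPM in LKO. Ly6a, Mup20 and Cdkn1a, whose values follow, were already read at 3.75 CPM or more in every WT HFD library. Psrc1, a microtubule-associated p53 target, went from 0.226 to 0.968 CPM in WT to 23.8 to 30.7 CPM in LKO. Slc1a1, a transporter of glutamate, was measured at 0.202 to 0.407 CPM across WT and 10.4 to 15.1 CPM across LKO libraries. Nat8, an acetyltransferase that acts on cysteine conjugates, rose from 0.295 to 0.948 CPM to 16.4 to 20.7 CPM. The log2 fold changes of these 4 genes were 6.37, 5.50, 5.48 and 4.80.

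Some of the others code for proteins of the cell surface or of actin-rich protrusions. Aqp7, a channel for water and glycerol, rose by 4.73 on the log2 scale (0.492 to 0.817 CPM in WT, 14.2 to 20.98 in LKO). Myo7b, a myosin of the brush border, rose by 4.86, and Pls1, a plastin that bundles actin in microvilli, by 4.56. Tmprss4, a membrane-bound serine protease, rose by 4.47. Ly6a, which encodes the surface protein Sca-1, had the lowest p of all genes (log2 fold change 4.36, SE 0.115, adjusted p = 5.17e-14): it was read at 13.9, 17.6, 14.4 and 15.9 CPM in WT and at 354, 314, 270 and 327 CPM in LKO. The group was completed by Fndc10 (5.56), the pheromone-carrier gene Mup20 (5.13), Bex4 (4.96), the imprinted retrotransposon-derived gene Peg10 (4.46), the cell cycle inhibitor Cdkn1a (4.22) and Inka2 (4.18), given here as log2 fold changes.

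Among the 15 largest falls, also chosen among genes without overlap between groups, were 5 sulfotransferase genes. Their products add sulfate to steroids, bile acids and drugs. Another sulfotransferase gene, Sult1e1, rose by 3.02. Sult2a1 stood at 290, 352, 122 and 264 CPM in WT and at 10.4, 74.1, 24.6 and 18.7 CPM in LKO, where replicates of 1 group differed several-fold. Sult3a1 fell by 3.93, Sult2a3 by 3.83, Sult2a5 by 3.53 and Sult2a1 by 3.0 on the log2 scale, and Sult2a2 fell by 2.49. The Sult2a genes lie side by side on chromosome 7 (Sult2a5 from 13623967 to 13670807, Sult2a2 from 13733505 to 13779636, Sult2a1 from 13796246 to 13837409 and Sult2a3 from 14067446 to 14123044), and close copies may share reads. Also among the 15 largest falls were 2 pseudogenes that lie within Sult2a gene bodies: Zbed4-ps1 (13639107 to 13642572), which fell by 3.70, and Zbed4-ps2 (13752831 to 13756278), which fell by 2.40. Sult3a1 (chromosome 10, 33857721 to 33879532) and its neighbour Rsph4a (33905111 to 33916021), which encodes a part of the ciliary radial spoke, fell together, the second by 3.10.

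Among the other large falls, Steap2, a metal reductase, went from 11.4 to 16.7 CPM in WT to 1.19 to 3.27 CPM in LKO (log2 fold change -2.49, SE 0.238, adjusted p = 1.28e-06). Cyp2b13, a cytochrome of female liver, stood at 342 to 495 CPM across WT and 57.7 to 90.3 CPM across LKO libraries. Hspa1b, the inducible chaperone Hsp70, ran from 6.44 to 26.5 CPM in WT and from 2.10 to 3.59 CPM in LKO. Nat8f7 fell by 3.37, the cadherin gene Cdh18 by 2.60 and the ephrin ligand gene Efna3 by 2.30. Serpina4-ps1, a pseudogene, had the most negative value at -4.51, with 1 WT library (replicate 1) at 9.65 CPM and the other 3 at 1.13 to 2.22 CPM. LKO values of that pseudogene were 0.102 to 0.247 CPM.

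In absolute amount, the transcripts that changed most were those of plasma proteins, of mitochondrial genes and of Mup20. Alb, which encodes albumin, was read at 50330, 50810, 51380 and 46310 CPM in WT and at 75950, 72860, 81580 and 67140 CPM in LKO. The group means differed by 24670 CPM, a 1.5-fold rise (log2 fold change 0.58, SE 0.113, adjusted p = 0.00143). Trf, which encodes transferrin, moved the other way, from 15040 to 16160 CPM in WT to 9650 to 12370 CPM in LKO. Mup20 stood at 49.0, 148, 142 and 53.3 CPM in WT and at 3379, 2858, 4750 and 2711 CPM in LKO. Apoa4, an apolipoprotein of triglyceride-rich particles, rose from 567 to 1099 CPM to 2755 to 2797 CPM (log2 fold change 1.64, adjusted p = 0.000112). Bhmt, which methylates homocysteine, was higher by 0.85 (adjusted p = 0.0339), but the call was lost in 6 of 8 fits that left out 1 HFD library (highest adjusted p 0.0958, without WT HFD replicate 1).

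**Figure D2:**
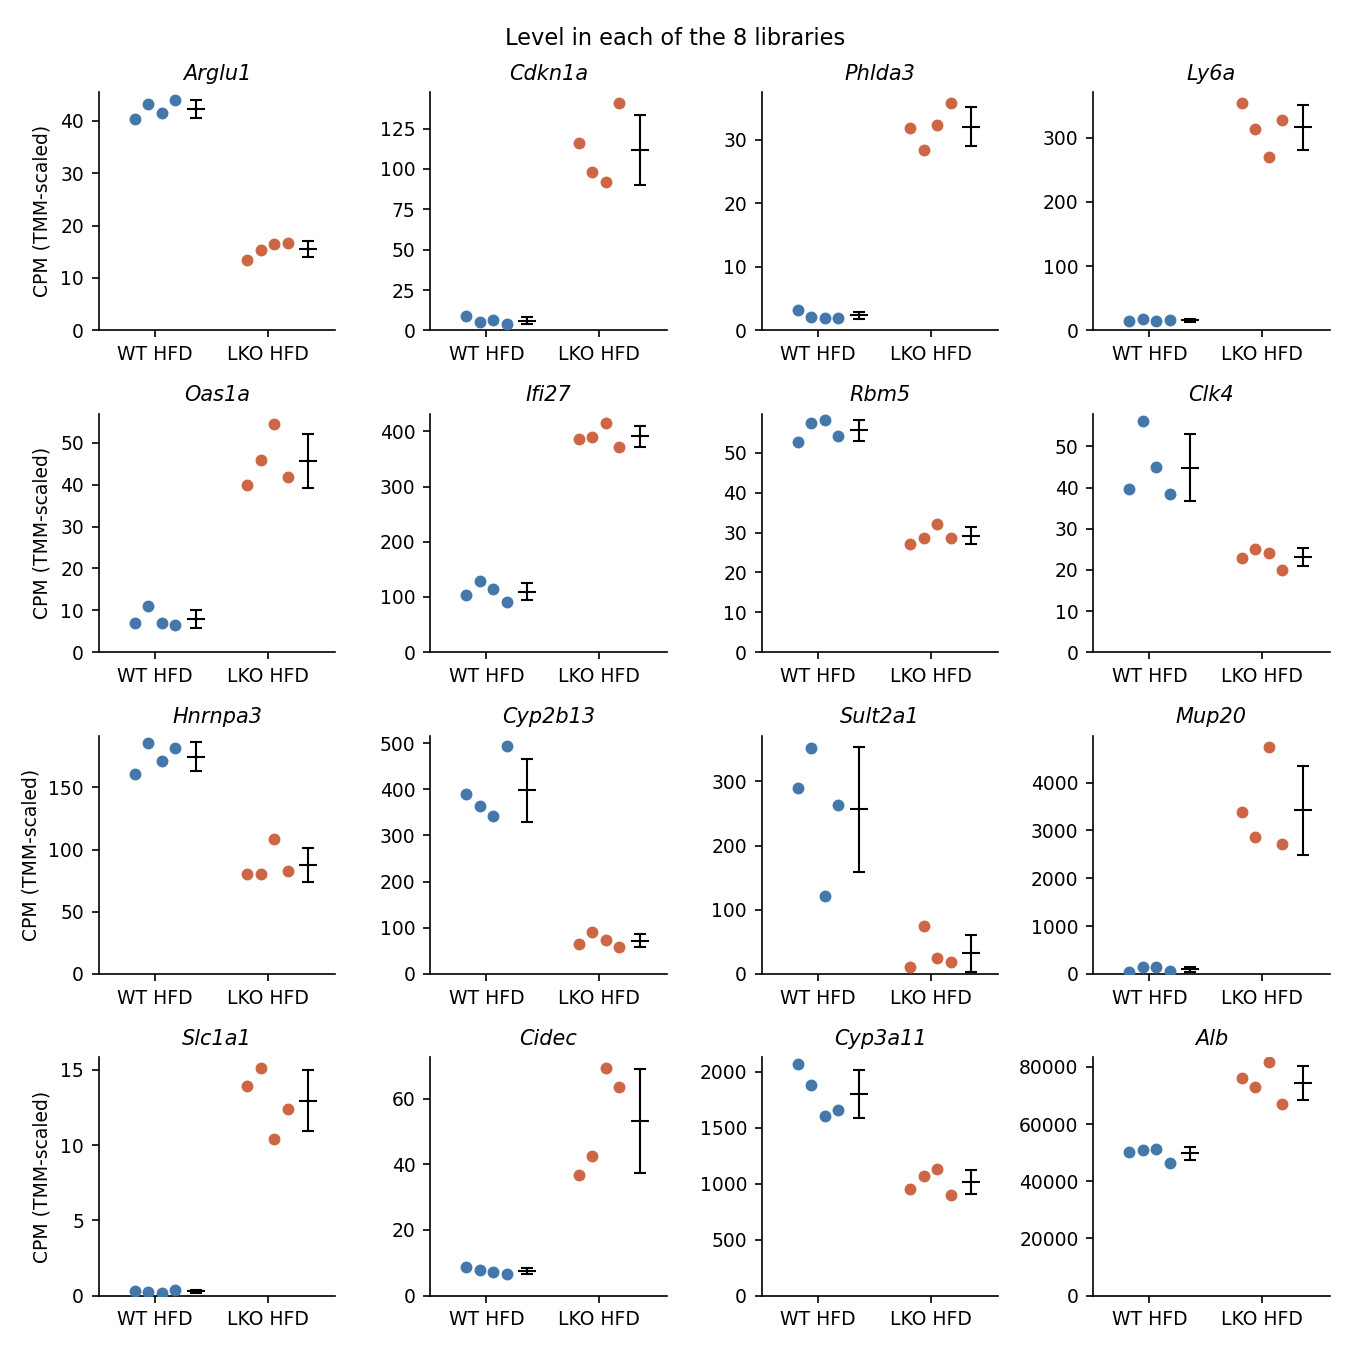
Level in CPM (vertical axes, linear and starting at 0) of 16 genes in each of the 4 WT HFD and 4 LKO HFD libraries. Points are libraries, and the dash with a bar beside them is the group mean with its SD; the groups do not overlap for any gene shown.

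Targets of p53, the transcription factor that is stabilised by DNA damage and other stress and that arrests or kills cells, were raised nearly throughout the list of arrest genes. Of its 10 members tested, 9 were higher and none lower, with a median log2 fold change of 1.86 against -0.01 over all genes. Cdkn1a (chromosome 17, 29090976 to 29100727), which encodes the cyclin-dependent kinase inhibitor p21, stood at 8.93, 5.11, 6.17 and 3.75 CPM in WT and at 116, 98.3, 92.2 and 141 CPM in LKO. Its lowest LKO library thus lay far above its highest WT library. Ccng1 (cyclin G1) rose by 1.84 (SE 0.121), Plk2, a polo-like kinase, by 1.87 (SE 0.16), and Zmat3, an RNA-binding protein, by 1.65 (SE 0.15). The antiproliferative gene Btg2 rose by 2.26, Gtse1 by 2.38, Ccnd1 (cyclin D1) by 1.05 and Sesn2 by 0.94. Sesn1 alone did not pass, at -0.18. The list name covers p53 targets linked to the cell cycle, Ccnd1 and Gtse1 among them, and whether cells were arrested was not tested.

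Targets of p53 in cell death and the damage response were split, with 8 of 15 higher, none lower and a median of 0.66. Phlda3, an inhibitor of Akt signalling, stood at 1.98 to 3.22 CPM across WT and 28.4 to 35.8 CPM across LKO libraries (log2 fold change 3.77, SE 0.162, adjusted p = 6.97e-11). Eda2r, which encodes a receptor related to those of tumour necrosis factor, rose by 4.09 and the death receptor gene Tnfrsf10b by 1.90. Aen, a nuclease, rose by 1.21, Bax by 0.94, Trp53inp1 by 1.58, Gdf15 by 2.21 and Mdm2, which marks p53 for degradation, by 0.66 (adjusted p = 4.92e-05). The BH3-only genes Bbc3 (Puma) and Pmaip1 (Noxa) and the receptor gene Fas did not pass, with log2 values of 0.51, 0.14 and 0.20. Both p53 counts stayed at 9 and at 8 to 9 in the fits that left out any 1 of the HFD libraries.

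Of 21 DNA repair genes, 1 was higher and 3 lower, with a median of -0.08, a share close to the 17.9% called over all genes. The one that rose was Polk, a polymerase that copies past lesions (6.63 to 9.64 CPM in WT, 20.5 to 24.5 in LKO). Atr, the kinase that senses stalled forks, fell by 0.64, Xrcc1, a scaffold of single-strand break repair, by 0.56, and Trp53bp1 by 0.49. Of 20 proliferation genes, only Ccne2 was called (0.66, adjusted p = 0.03), and it was lost in 5 of 8 fits that left out 1 HFD library (highest adjusted p 0.104, without WT HFD replicate 3). The median of that list was -0.36.

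Interferon-stimulated genes, which are switched on in cells that sense interferon or viral nucleic acid, were higher in LKO. Of 32 members tested, 23 were higher and none lower, with a median log2 fold change of 1.0. Oas1a, an enzyme that senses double-stranded RNA, stood at 7.01, 10.97, 7.06 and 6.55 CPM in WT and at 39.9, 45.9, 54.5 and 41.9 CPM in LKO (log2 fold change 2.53, SE 0.179, adjusted p = 4.07e-08). Its close copy Oas1g, with which it may share reads, rose by 2.73. Ifi27 had the lowest p of the list, at 103, 129, 115 and 91.6 CPM in WT and 386, 390, 416 and 372 CPM in LKO. Irf7, the transcription factor that amplifies the interferon response, rose by 1.56 (SE 0.205, adjusted p = 5.26e-05), and it shares exon sequence with Phrf1 on the opposite strand.

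The Ifit genes and the ubiquitin-like modifier Isg15 rose too, with more scatter. Ifit1 was higher by 2.23 (SE 0.46), Ifit3 by 2.10 (SE 0.317) and Isg15 by 1.95 (SE 0.376). Isg15 was read at 9.08, 21.6, 9.52 and 9.39 CPM in WT and at 42.6, 37.1, 69.1 and 42.6 CPM in LKO: WT HFD replicate 2 and LKO HFD replicate 3 were each the highest of their group. The number of members higher ran from 17 (without LKO HFD replicate 3) to 26 (without WT HFD replicate 2). Of 13 nucleic acid sensors 2 were higher and none lower, near the 17.9% called over all genes. Zbp1, a sensor of Z-form nucleic acids, rose by 1.97 (12.7 to 21.9 CPM in WT, 48.1 to 75.7 in LKO). Ifih1, the RNA sensor MDA5, was higher by 0.49 (adjusted p = 0.0195), a call lost in 4 of 8 fits (highest adjusted p 0.0749, without LKO HFD replicate 3). Of 16 genes of MHC class I presentation 4 were higher and 1 lower, against 10.3% and 7.57% over all genes. H2-T23 rose by 0.56, whereas H2-Q7 fell by 0.57, and both belong to a gene family whose copies may share reads.

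The promoters of 3 such genes are shown because the interferon-stimulated list rose as a group and because interferon-activated factors bind a known element, the interferon-stimulated response element. All 3 hold a match to it, which not every gene of the list that rose does. Each sequence covers the 250 bases before the RefSeq transcription start (GRCm38.p6), 5′ to 3′ on the strand of the gene, and capitals mark every match to GAAANNGAAA on either strand. Matches may overlap, and on the opposite strand the element reads TTTCNNTTTC.
Oas1a, chr5:120907526-120907775: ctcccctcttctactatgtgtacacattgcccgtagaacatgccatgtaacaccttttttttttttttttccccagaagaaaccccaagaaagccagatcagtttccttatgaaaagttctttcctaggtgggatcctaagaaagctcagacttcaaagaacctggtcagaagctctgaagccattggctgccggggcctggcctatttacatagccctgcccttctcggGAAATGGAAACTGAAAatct
Ifit3, chr19:34583279-34583528: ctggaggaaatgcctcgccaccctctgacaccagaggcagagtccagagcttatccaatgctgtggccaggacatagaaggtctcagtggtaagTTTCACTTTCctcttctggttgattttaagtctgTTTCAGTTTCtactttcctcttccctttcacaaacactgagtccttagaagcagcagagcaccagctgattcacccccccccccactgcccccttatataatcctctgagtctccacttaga
Isg15, chr4:156200819-156201068: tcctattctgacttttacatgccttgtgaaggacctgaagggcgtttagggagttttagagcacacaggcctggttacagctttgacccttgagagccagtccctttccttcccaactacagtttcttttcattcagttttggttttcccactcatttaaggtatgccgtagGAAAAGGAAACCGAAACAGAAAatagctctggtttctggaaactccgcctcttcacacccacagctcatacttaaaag
Oas1a (minus strand) has 2 overlapping matches, whose first bases lie 20 and 14 bases before the start. Ifit3 (plus strand) has 2 matches on the opposite strand, at 156 and 122 bases, and Isg15 (minus strand) has 3 overlapping matches, at 78, 72 and 66 bases. The motif was searched in the window from 250 bases before to 50 after the start. It occurred in 14 of 22 interferon-stimulated genes with a promoter in the table (63.6%) and in 1079 of 27025 symbols overall (3.99%). Within the list, 10 of the 17 genes called higher held it, and so did 4 of the 5 not called. The 3 promoters shown are among those 10. Irf7, Oasl1, Oasl2, Ifi44 and Cmpk2 were called higher and had no match. Among the genes tested, it was present in 69 of 1115 called higher (6.19%), 31 of 865 called lower (3.58%) and 332 of 8944 not called (3.71%). A match to these letters is a description of the promoter, not a measured binding site.

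Splicing regulators of the SR class, proteins with arginine-serine repeats that select splice sites, and the kinases that phosphorylate them were lower in LKO. Of 31 members tested, 20 were lower and none higher, with a median log2 fold change of -0.35. The falls were modest but even across libraries. Srsf5 stood at 215, 235, 228 and 233 CPM in WT and at 141, 147, 143 and 129 CPM in LKO (log2 fold change -0.70, SE 0.107, adjusted p = 0.000169). Srsf2 fell by 0.72 and Srsf11 by 0.61. Clk4 and Clk1, kinases of SR proteins, fell by 0.96 and 0.88: Clk1 was read at 52.9 to 74.2 CPM across WT and 32.3 to 35.6 CPM across LKO libraries. The number lower ran from 15 (without WT HFD replicate 2, or without LKO HFD replicate 4) to 21 (without WT HFD replicate 1).

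The hnRNP and Rbm proteins, which bind nascent RNA and often counter SR proteins, fell in part. Of 32 members, 15 were lower and 2 higher, with a median of -0.28. Rbm5 stood at 52.8, 57.5, 58.2 and 54.2 CPM in WT and at 27.3, 28.6, 32.2 and 28.6 CPM in LKO (log2 fold change -0.93, SE 0.111, adjusted p = 1.43e-05). Hnrnpa3 fell by 0.99, Rbm10 by 0.68 and Hnrnpr by 0.49. The 2 members that rose were Hnrnpa2b1 (0.34) and Hnrnpc (0.37). Rbm10 and Srsf2 share exon sequence with a gene on the opposite strand, and the sources used here do not say whether strand was used in counting.

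The difference between the core of the spliceosome and the regulator lists was not tested. Of 32 core genes, 3 were lower and none higher (median -0.12), against 7.57% lower and 10.3% higher over all genes. U2af1, which reads the 3′ splice site, fell by 0.57, Snrpd3 by 0.49 and Sf3a1 by 0.32. No gene of nonsense-mediated decay passed among 16 tested. Of 31 subunits of Mediator, the complex that links activators to RNA polymerase, 1 was higher and 2 lower. That is a smaller share than the 17.9% called over all genes. Med27 fell by 0.60, from 4.76 to 5.66 CPM in WT to 3.02 to 3.58 CPM in LKO.

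**Figure D3:**
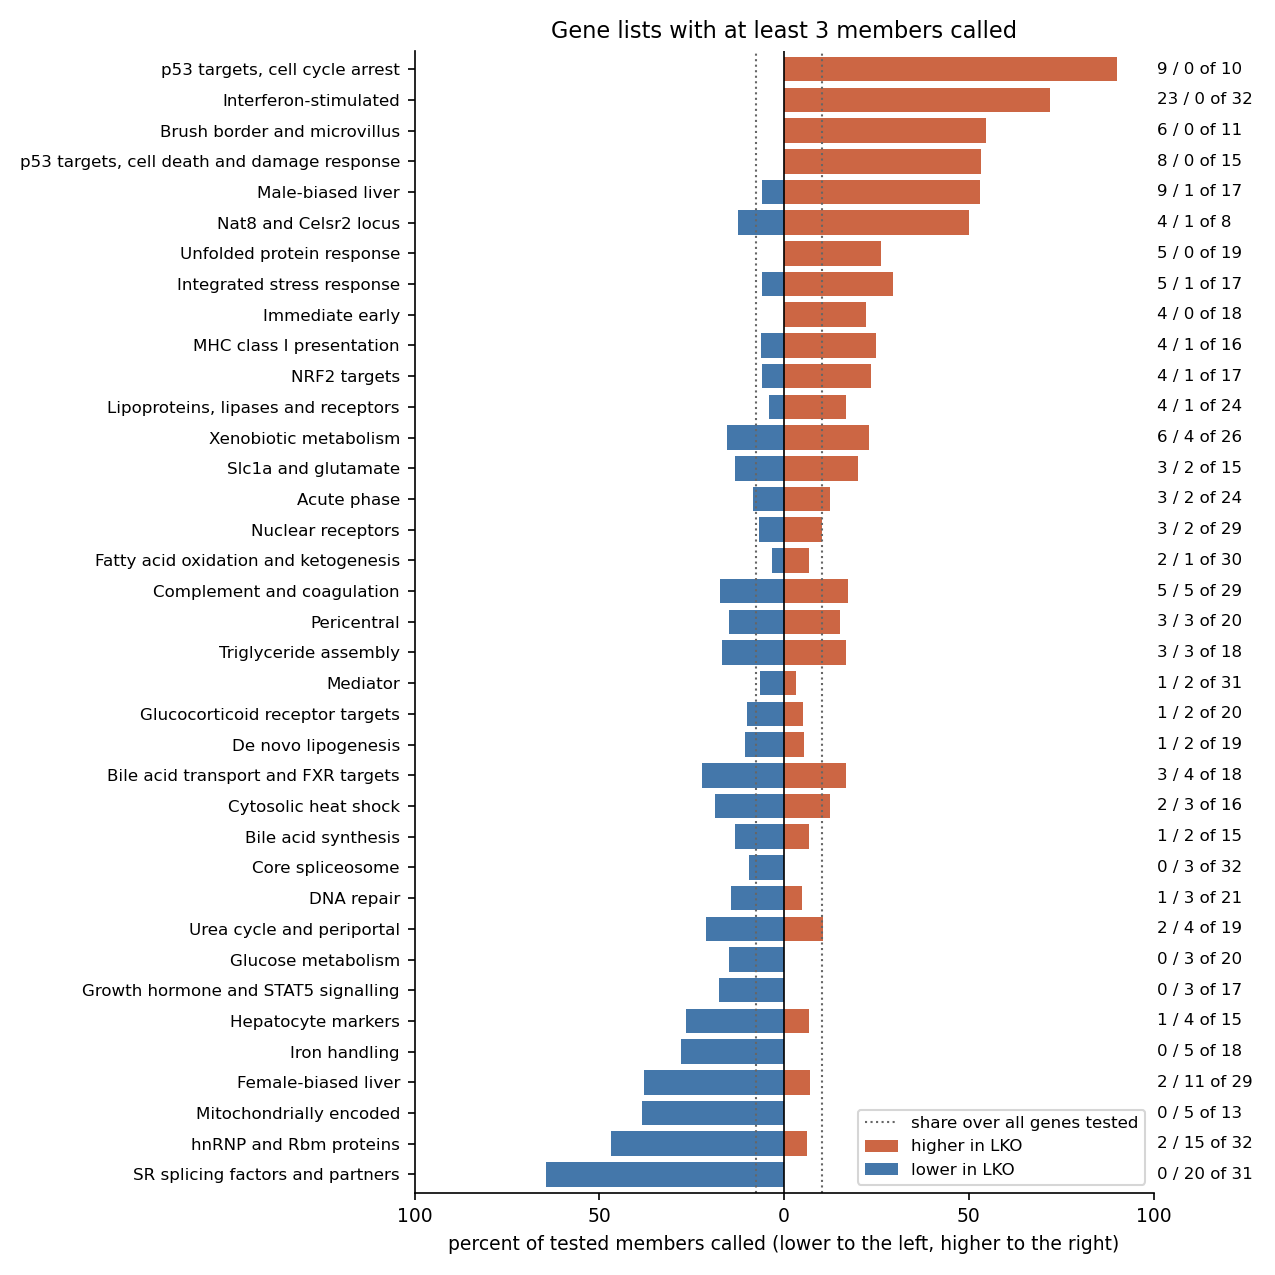
Percent of the tested members of each gene list called higher (bars to the right) or lower (bars to the left) in LKO on HFD, for the lists with at least 3 called and 8 tested members. Dotted lines mark the shares over all genes tested, 10.3% higher and 7.57% lower, and the counts stand at the right; arrest targets of p53 and interferon-stimulated genes lie at the top (9 of 10 and 23 of 32 higher) and SR splicing factors at the bottom (20 of 31 lower).

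Genes that differ between male and female liver, a pattern set by the rhythm of growth hormone, shifted in the male direction in these females. Of 17 male-biased genes, 9 were higher and 1 lower, with a median of 0.85. Of 29 female-biased genes, 2 were higher and 11 lower, with a median of -0.92. Beside Cyp4a12a and Mup20, described above, Cyp2d9 rose from 18.5, 29.95, 23.96 and 27.01 CPM in WT to 145, 124, 116 and 83.2 CPM in LKO (log2 fold change 2.23, SE 0.222, adjusted p = 2.97e-06). C8a, a subunit of the complement attack complex, rose by 1.93, C8b by 1.75 and Slco1a1, an organic anion transporter, by 2.13. Mup21 was the male-biased gene that was lower (-1.20, adjusted p = 0.0195), a call lost in 4 of 8 fits that left out 1 HFD library (highest adjusted p 0.0789, without WT HFD replicate 3).

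On the female side Cyp2b13 and the Sult genes fell, as given above, and Cyp2c69 fell from 272 to 436 CPM in WT to 49.7 to 103 CPM in LKO. The transporter gene Slco1a4 fell by 0.92. Cux2, a female-specific repressor, was lower by 1.19 (adjusted p = 0.00886), with overlapping libraries: 31.5, 53.7, 20.1 and 59.9 CPM in WT and 11.7, 20.7, 22.2 and 17.5 CPM in LKO. The 2 female-biased genes that went the other way were Cyp2b10, a drug-inducible cytochrome (log2 fold change 3.47; 2.42 to 6.82 CPM in WT, 42.2 to 54.8 in LKO), and Sult1e1, the oestrogen sulfotransferase (3.02, adjusted p = 0.011). Of 17 genes of growth hormone and STAT5 signalling, 3 were lower and none higher: Ghr, the growth hormone receptor, fell by 0.45, Igfbp3, a carrier of insulin-like growth factor, by 0.77, and Cux2 is the third. Many genes of these 2 lists belong to families of near-identical copies.

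Of 29 nuclear receptors, 3 were higher and 2 lower, close to the shares over all genes (10.3% and 7.57%). Nr1i2, the xenobiotic sensor PXR, fell from 58.1 to 65.3 CPM in WT to 36.9 to 43.0 CPM in LKO (log2 fold change -0.62, SE 0.0809, adjusted p = 3.84e-05). Nr2f2 fell by 0.46. Esr1, the oestrogen receptor, was higher by 0.69, Rora by 0.52 and Esrra by 0.46, but each of these 3 calls was lost in at least 1 fit that left out an HFD library (highest adjusted p 0.0691 without WT HFD replicate 3 for Esr1, 0.127 without LKO HFD replicate 1 for Rora, and 0.0528 without LKO HFD replicate 1 for Esrra). Nr3c1, the glucocorticoid receptor, was at 0.01 (adjusted p = 0.986).

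Of 20 targets of the glucocorticoid receptor, 1 was higher and 2 lower, also near the 17.9% over all genes. G6pc, which releases glucose from the hepatocyte, was read at 214, 316, 411 and 261 CPM in WT and at 99.7, 79.2, 209 and 116 CPM in LKO (log2 fold change -1.25, SE 0.308, adjusted p = 0.0102). Its groups did not overlap, by a narrow margin. Tat, an enzyme of tyrosine breakdown, was lower by 0.79 with overlapping libraries, and was not called without WT HFD replicate 2 (adjusted p = 0.0705) or in 2 other such fits. Ddit4, an inhibitor of mTOR, was higher by 0.83, and its call was lost in 3 of 8 fits (highest adjusted p 0.0705, without LKO HFD replicate 3).

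Lipid genes were read in 5 lists, some with a larger and some with a smaller share called than the 17.9% over all genes. Among 15 lipid droplet proteins 1 was called: Cidec, which fuses droplets, stood at 8.74, 7.92, 7.26 and 6.55 CPM in WT and at 36.8, 42.6, 69.4 and 63.4 CPM in LKO (log2 fold change 2.80, SE 0.376, adjusted p = 0.000121). Plin2, the main droplet coat protein, was at 0.06. Among 18 genes of triglyceride assembly 3 were higher and 3 lower. Mogat1, which acylates monoacylglycerol, rose by 2.50 (2.02 to 4.82 CPM in WT, 15.1 to 19.1 in LKO), Lpin3 by 0.68 and Aqp7 as given above. Agpat3 fell by 0.61, from 203 to 284 CPM to 151 to 169.5 CPM, and Dgat2 and Agpat2 were the other 2 lower.

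Of 24 lipoprotein genes 4 were higher and 1 lower, near the 17.9% called over all genes. Lpl, the lipase that frees fatty acids from lipoproteins, stood at 40.9, 34.3, 46.0 and 42.6 CPM in WT and at 82.6, 137, 146 and 97.5 CPM in LKO (log2 fold change 1.5, SE 0.205, adjusted p = 7.46e-05). Sort1, a sorting receptor for apolipoprotein B, rose by 2.14, Apoc2, the activator of Lpl, by 0.75 and Apoa4 by 1.64. Vldlr, a receptor for triglyceride-rich particles, fell by 0.89. Fatty acid oxidation and ketogenesis gave 2 higher and 1 lower of 30, a smaller share than the 17.9% called over all genes. Acadl, an acyl-CoA dehydrogenase, fell by 0.41. Pdk4, which blocks pyruvate oxidation, and Vnn1 were higher by 1.41 and 0.76, and were not called in 3 and 7 of 8 fits that left out 1 library (highest adjusted p 0.0605 and 0.0934, both without WT HFD replicate 3).

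De novo lipogenesis, the making of fatty acids from acetyl-CoA, had a negative median (-0.49) and 3 calls among 19 genes, near the share over all genes. Fads3, of the desaturase family, rose by 1.88 (27.8 to 65.6 CPM in WT, 137 to 167 in LKO). Me1, which supplies NADPH, and Elovl5, an elongase, were lower by 1.24 and 0.66. Without WT HFD replicate 2 these 2 values were -0.79 (adjusted p = 0.162) and -0.57 (adjusted p = 0.0884), and no member of the list was then called lower. The count lower was also 0 without WT HFD replicate 3 or LKO HFD replicate 1, 2 or 4, and 1 without LKO HFD replicate 3. WT HFD replicate 2 held 6275 CPM of Fasn, the fatty acid synthase, against 1480, 2231 and 1869 CPM in the other WT libraries and 1294 to 2417 CPM in LKO. The log2 fold change of Fasn was -0.90 (adjusted p = 0.318) with WT HFD replicate 2 and -0.23 (adjusted p = 0.83) without it.

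Cholesterol synthesis showed no called difference. None of 12 genes of the early and 9 of the late pathway passed, with medians of -0.08 and 0.03. Of 13 genes of sterol control and uptake, only Npc2, a lysosomal sterol carrier, was called (0.41, adjusted p = 0.00349). Soat2, which esterifies cholesterol for storage and secretion, fell from 59.0, 55.0, 65.8 and 47.5 CPM in WT to 26.1, 30, 25.9 and 22.8 CPM in LKO (log2 fold change -1.12, SE 0.152, adjusted p = 5.59e-05). Abcg8, a part of the exporter of cholesterol into bile, fell by 0.68. Soat2 and Abcg8 were the 2 called among 14 sterol exporters and LXR targets, near the 17.9% called over all genes.

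Bile acid genes were called in both directions. Cyp8b1, the sterol 12-alpha-hydroxylase of cholic acid synthesis, was read at 110, 205, 195 and 157 CPM in WT and at 61.0, 60.6, 84.4 and 19.5 CPM in LKO (log2 fold change -1.56, SE 0.322, adjusted p = 0.00335). The rate-limiting enzyme gene Cyp7a1 overlapped between groups (-0.48, adjusted p = 0.272). Cyp7b1, of the alternative pathway, rose by 0.56 and Cyp46a1, the cholesterol 24-hydroxylase, fell by 1.20. In all, 1 of 15 synthesis genes was higher and 2 lower, near the 17.9% called over all genes. Of 18 transport genes and FXR targets, 3 were higher and 4 lower. Slc10a1, the sodium-dependent bile acid uptake carrier, fell from 501 to 568 CPM in WT to 282 to 354 CPM in LKO. Ephx1, an epoxide hydrolase, rose by 0.83.

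Of 20 genes of glucose metabolism, 3 were lower and none higher, against 7.57% lower and 10.3% higher over all genes. They were G6pc, Fbp1 of gluconeogenesis (-0.56, SE 0.107) and Pygl, the glycogen phosphorylase (-0.62, SE 0.125). Among 19 genes of the urea cycle and of periportal cells, Otc fell by 0.63 and Got1 by 0.79, while Cyp2f2 rose by 0.63. Cdh1, which encodes E-cadherin, rose from 3.39 to 6.94 CPM in WT to 37.2 to 42.9 CPM in LKO (log2 fold change 2.95, SE 0.249, adjusted p = 5.97e-07). In all, 2 of these 19 were higher and 4 lower. Among 20 pericentral genes 3 were higher and 3 lower. Glul, the glutamine synthetase of the innermost hepatocytes, fell by 0.58 (1033 to 1370 CPM in WT, 772 to 892 in LKO), and Lgr5, a receptor for R-spondin, fell by 1.09. Rhbg, an ammonium transporter of the same cells, rose by 0.94, and Slc13a3 by 0.97.

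Glutamate genes were called in both directions. Beside Slc1a1, given above, Slc1a4, a neutral amino acid carrier of the same family, rose by 0.80, from 9.58 to 13.03 CPM to 17.4 to 23.1 CPM. Glud1, the glutamate dehydrogenase, fell from 1185 to 1693 CPM in WT to 940 to 953 CPM in LKO (log2 fold change -0.54, SE 0.116, adjusted p = 0.00327). Of the 15 genes of this list 3 were higher and 2 lower, against 10.3% and 7.57% over all genes, with a median of -0.28.

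Xenobiotic metabolism was called in both directions, 6 higher and 4 lower of 26, against 10.3% and 7.57% over all genes. Cyp3a11, the main drug-metabolising cytochrome of its family, stood at 2073, 1884, 1608 and 1656 CPM in WT and at 950, 1072, 1133 and 900 CPM in LKO (log2 fold change -0.83, SE 0.129, adjusted p = 0.000192). Cyp2b10 rose by 3.47, Cyp2c55 by 1.67, Ugt2b1, a glucuronosyltransferase, by 0.76 and Gsta2, a glutathione transferase, by 1.43. The last 4 and Cyp3a11 have close copies, and reads may be split between them.

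Brush border and microvillus genes, which shape the apical surface of epithelia, rose in 6 of 11 cases, with none lower and a median of 0.56. Beside Myo7b, the microvillar cadherin gene Cdhr5 rose by 0.67 (53.8 to 66.8 CPM in WT, 87.8 to 100.3 in LKO) and the scaffold gene Pdzk1 by 0.56. The actin regulators Eps8l2, Eps8 and Espn rose by 0.98, 0.93 and 1.21. Psrc1 and Sort1 are also neighbours on chromosome 3, in a region known from genetics of blood lipids. Both rose, and of the 8 tested genes of the list that joins this region to the Nat8 cluster 4 were higher and 1, Nat8f7, lower, whereas their neighbour Celsr2 was at -1.33 (adjusted p = 0.121), with 0.246 to 1.05 CPM across WT and 0.165 to 0.597 CPM across LKO libraries.

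Gdf15, a stress hormone, stood at 6.87, 12.8, 8.51 and 10.3 CPM in WT and at 34.0, 40.9, 50.1 and 53.4 CPM in LKO (log2 fold change 2.21, SE 0.266, adjusted p = 2.96e-05). It is counted in the integrated stress response (5 higher and 1 lower of 17) and among p53 targets, and so is Sesn2. Over all genes 10.3% were higher and 7.57% lower. The stress transcription factor gene Ddit3 (CHOP) rose by 0.83 and Trib3 by 0.97, whereas Atf4 was at 0.08. Of 17 NRF2 targets, which protect against oxidants, 4 were higher and 1 lower: Osgin1 rose by 1.05, Srxn1 by 0.79, Gsta2 by 1.43 and Nfe2l2, which encodes NRF2 itself, by 0.49. The fall was that of Me1.

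Chaperones gave a mixed picture. Of 19 genes of the unfolded protein response, 5 were higher and none lower, against 10.3% and 7.57% over all genes. The median was 0.27, but the count higher ranged from 2 (without WT HFD replicate 1) to 5. Calr, an endoplasmic reticulum chaperone, rose by 0.51 and Sdf2l1 by 0.95, while Hspa5, the central chaperone BiP, was at 0.27 (adjusted p = 0.271). Of 16 cytosolic heat shock genes, 2 were higher and 3 lower, against the same shares over all genes. Hspb1, a small heat shock protein, rose from 30.4 to 40.4 CPM in WT to 99.5 to 106 CPM in LKO, whereas Hspa1b fell as given above. Hspa1a and Bag3 were lower by 1.88 and 0.54 with overlapping libraries, and were not called in 4 and 6 of 8 fits that left out 1 library (highest adjusted p 0.0667 without LKO HFD replicate 1 and 0.128 without WT HFD replicate 2).

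Genes of secreted liver proteins were called in both directions. Of 24 acute phase genes 3 were higher and 2 lower, near the shares over all genes (10.3% and 7.57%). Itih3 stood at 537, 481, 514 and 486 CPM in WT and at 1267, 1038, 865 and 1174 CPM in LKO (log2 fold change 1.11, SE 0.15, adjusted p = 5.56e-05). Mbl2, a mannose-binding lectin, rose by 0.83 and Serpina3n, a protease inhibitor, by 0.94, while Lbp, which binds lipopolysaccharide, fell by 0.92. Of 29 complement and coagulation genes 5 were higher and 5 lower: C8a and C8b rose, and F12 and F11, which start the contact pathway of clotting, fell by 0.86 and 0.76. F12 went from 408 to 451 CPM in WT to 220.1 to 263 CPM in LKO.

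Of 19 hepatocyte identity factors 2 were higher, near the 10.3% over all genes, among them Hnf4g (2.11). The median of that list was 0.00. Of 19 clock genes and outputs 1 was higher and 1 lower, against 17.9% called over all genes. They were Rora, given above, and Hlf, a clock-controlled transcription factor (-0.39). The call of Hlf was lost in 4 of 8 fits that left out 1 library (highest adjusted p 0.0734, without LKO HFD replicate 4). Of 18 immediate early genes, which respond within minutes to stimuli, 4 were higher and none lower, with counts of 1 to 6 in the fits that left out 1 HFD library. Egr1, one of them, was read at 6.39 to 10.8 CPM in WT and at 13.9, 41.6, 47.8 and 22.9 CPM in LKO (1.99), and it was lost in 5 of 8 such fits (highest adjusted p 0.0722, without LKO HFD replicate 3).

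Iron genes were lower where they were called, in 5 of 18 with none higher, against 7.57% lower and 10.3% higher over all genes. Beside Trf and Steap2, Tfr2, the iron sensor of hepatocytes, fell by 0.48 (347 to 408 CPM in WT, 253 to 295 in LKO). Hjv, a coreceptor that drives hepcidin, fell by 0.70. Hamp2, a copy of the hepcidin gene, fell by 1.74, from 199.7 to 398 CPM to 67.2 to 115 CPM.

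Transcripts encoded by the mitochondrial genome were lower in 5 of 13 cases with none higher, and their median was -0.44. No nuclear gene of oxidative phosphorylation (32 tested, median -0.06) and no cytosolic ribosomal protein gene (32 tested, median -0.05) was called. mt-Nd2 stood at 4598, 5481, 4542 and 4738 CPM in WT and at 2875, 3420, 3491 and 2822 CPM in LKO (log2 fold change -0.62, SE 0.14, adjusted p = 0.00454), and mt-Nd4l fell by 0.60. mt-Atp6 was lower by 0.60 (adjusted p = 0.0147; 0.0557 without LKO HFD replicate 4). mt-Cytb and mt-Nd4 were lower by 0.52 and 0.48, and each was lost in 7 of 8 fits that left out 1 library (highest adjusted p 0.11 and 0.154, both without WT HFD replicate 2). The number called lower was 2 without LKO HFD replicate 4, and 3 without any 1 of the others except WT HFD replicate 1, where it was 5. Gm10925, a nuclear copy of the mt-Atp6 sequence on chromosome 1, was read at 456, 312.5, 22.2 and 315 CPM in WT and at 2386, 2365, 1216 and 2591 CPM in LKO. Its rise of 2.95 (adjusted p = 0.0464) was lost in all 8 such fits (0.0547 to 0.0964), and reads may be shared between it and mt-Atp6.

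Markers of liver cell types checked what the samples held. Hepatocyte markers were abundant in all 8 libraries, with sums of 101800 to 106400 CPM over 15 genes in WT and 111400 to 127200 CPM in LKO. Alb is the largest part of that sum and, as given above, was itself higher in LKO. Its group means differed by 24670 CPM, more than those of the sums (104600 CPM in WT, 120500 CPM in LKO). The higher sums in LKO therefore do not describe the other markers, and the median log2 fold change of the list was -0.1. One hepatocyte marker was higher (Alb) and 4 were lower: Trf, Tat, Ttr (-0.42) and Serpina1c (-0.36). The last 2 were lost in 8 and 6 of 8 fits that left out 1 library (highest adjusted p 0.115 without WT HFD replicate 1 and 0.114 without WT HFD replicate 4). Kupffer cell markers gave no call among 11 genes, with sums of 462 to 672 CPM across WT and 474 to 796 CPM across LKO libraries. Markers of stellate cells and matrix (26 genes), of B and plasma cells (13) of neutrophils (4 of 10 tested), of adipocytes (2 of 8) and of pancreas (2 of 10) gave none either.

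Where markers of other cells were called, no list held more than 2 calls. The list of lipid-associated and monocyte-derived macrophages summed to 647 to 741 CPM across WT and 771 to 927 CPM across LKO libraries (2-sided exact permutation test, p = 0.0286, 0.133 adjusted over 14 summaries). It had 2 of 18 higher, Lpl and the lysosomal protease gene Ctsd (0.39), and Ctsd alone accounted for 364 to 404 CPM across WT and 478 to 512 CPM across LKO libraries. Bile duct markers summed to 120 to 156 CPM across WT and 153 to 177 CPM across LKO libraries. Cdh1, also in the periportal list, alone accounted for 3.39 to 6.94 CPM across WT and 37.2 to 42.9 CPM across LKO libraries. The bile duct list had 2 of 11 tested higher, Cdh1 among them, but a median of -0.45, and the keratin gene Krt19 was at -1.25 (adjusted p = 0.0678). In T and NK cell markers Prf1 was higher (1.42), in endothelial markers Vwf was lower (-0.39) and in red cell markers Alas2 was higher (0.63), each lost in at least 2 of 8 fits that left out 1 library (highest adjusted p 0.077 without WT HFD replicate 4, 0.137 without LKO HFD replicate 1 and 0.0519 without WT HFD replicate 1). No marker of any list was at 0 in all 8 libraries. What part these cells have in the results above was not tested.

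The genotype difference on HFD was then set beside that on chow, which came from 8 other libraries, 4 of WT and 4 of LKO. On chow 3565 of 14434 genes (24.7%) were called. Of the 2583 genes called on HFD, 1772 were also called on chow, which is 68.6% of the HFD calls and 49.7% of the chow calls. In 1769 of these the direction was the same. The 3 others were Atp5g2 (-0.59 on HFD, 0.40 on chow), Nelfa (-0.36 and 0.31) and Rnf145 (-0.33 and 0.44). Their interactions did not pass (adjusted p = 0.0841, 0.26 and 0.232). Some lists described above went the same way on chow. There 9 of 10 arrest targets of p53, 28 of 32 interferon-stimulated genes and 11 of 17 male-biased genes were higher. Lower on chow were 11 of 31 SR genes and 21 of 29 female-biased genes. Other lists differed in their counts of calls: of 19 genes of the unfolded protein response none was higher on chow and 2 were lower (median -0.24). Of 20 pericentral genes 5 were higher and none lower, and of 13 genes of sterol control and uptake 1 was higher and 5 lower. These are counts of calls on each diet, and whether a list as a whole depended on diet was not tested.

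A direct test of whether the genotype difference depended on diet called 3 of 14434 genes (0.0208%), while 1263 had an unadjusted p below 0.05. DESeq2 called 48 and limma voom 16. Adam11, a catalytically inactive ADAM family member, stood at 107, 101.3, 123 and 147 CPM in WT and at 188, 182, 175 and 189 CPM in LKO on HFD (0.62). On chow the difference was 2.28, so that the interaction was -1.66 (SE 0.264, adjusted p = 0.0413). The HFD difference of Adam11 alone was lost in 6 of 8 fits that left out 1 library (highest adjusted p 0.0741, without WT HFD replicate 1). Lepr, the leptin receptor, differed by 1.45 on chow and by -0.31 on HFD (adjusted p = 0.295), where WT libraries lay at 31.3, 22.7, 23.8 and 22.1 CPM and LKO libraries at 22.1, 20.9, 16.3 and 21.4 CPM. Ppp4r4, a regulatory subunit of protein phosphatase 4, differed on HFD (12.4 to 14.1 CPM in WT, 22.6 to 25.9 in LKO; 0.90, adjusted p = 2.39e-06) and by 0.09 on chow. The interaction was -1.76 for Lepr and 0.81 for Ppp4r4 (adjusted p = 0.0413 each). The number of interaction genes fell to 0 when WT HFD replicate 1, 2, 3 or 4 was left out, and without LKO HFD replicate 1, 2 or 4; it was 5 without LKO HFD replicate 3. Among the chow libraries it was 9 without LKO replicate 1, 2 without LKO replicate 3, 1 without WT replicate 3 or LKO replicate 2, and 0 without any 1 of the other 4.

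**Figure D4:**
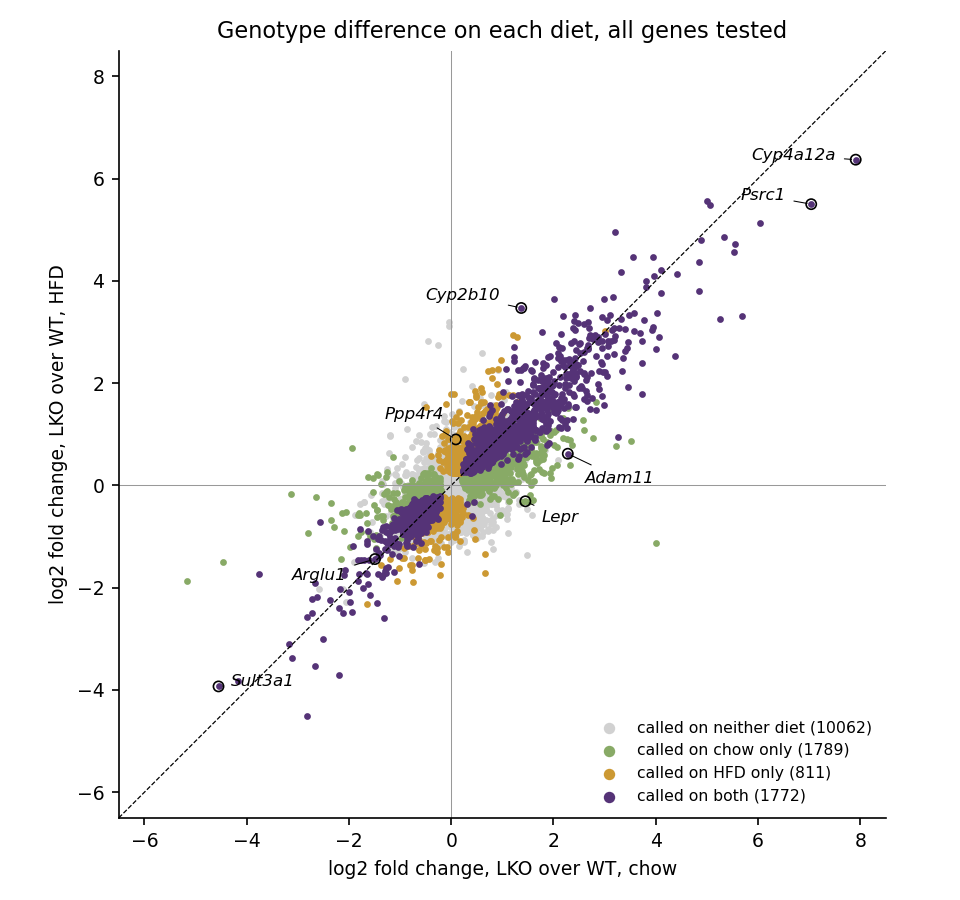
Log2 fold change of LKO over WT on chow (horizontal axis) and on HFD (vertical axis) for 14434 genes, coloured by the diet on which they were called; the dashed line marks equal values. Of 2583 genes called on HFD, 1772 were called on chow too, and the 3 interaction genes Adam11, Lepr and Ppp4r4 are ringed together with 5 other genes for orientation.

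The table of counts holds only genes read in all 16 libraries, so that genes without a read in 1 or more libraries are missing from it. A wider deposited table of 35712 genes adds them. With it, 2712 of 14762 genes (18.4%) were called on HFD, and of the 328 tested genes that only it holds, 117 (35.7%) were called, 106 higher and 11 lower. A gene that passed the filter through the LKO libraries alone had to differ.

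The highest level in LKO among these genes was that of Avil, an actin-severing protein of the villin family. It had 1, 1, 3 and 0 counts in the WT HFD libraries and 661, 652, 511 and 575 counts in the LKO HFD libraries. Dnah5, a heavy chain of the dynein that moves cilia, had 1, 3, 2 and 0 counts in WT and 285, 242, 271 and 283 counts in LKO. Syt14, of the synaptotagmin family, had a single count in WT and 136, 153, 125 and 156 counts in LKO. The ratio of LKO to WT, scaled to library size, was 453 for Avil (95% exact interval 194 to 1400), 170 for Dnah5 (77.9 to 465) and 538 for Syt14 (96.3 to 21300). On chow the sums over the WT and LKO libraries were 13 and 3331 counts for Avil. The intervals cover counting error only, and with so few WT counts they are wide.

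The same contrast, at lower counts, held for a second axonemal dynein gene, Dnah1 (35 counts over the WT libraries, 422 over the LKO libraries), and for Trpv1, the capsaicin receptor channel (8 and 286). Rbm24, a splicing regulator of muscle, had 5 counts in WT and 311 in LKO, and Alpk3, a kinase known from heart muscle, had 36 and 347. The pseudogene Gm1980 had 15 and 440 counts, and Gm49355, annotated as protein coding, had 8 and 365. These genes were chosen as called, read in all LKO HFD libraries and highest there, which left little room for overlap with WT. The libraries of Sprr1a, a protein of the epidermal envelope, did overlap, with 0, 38, 14 and 1 counts in WT and 34, 81, 215 and 36 in LKO. Sprr1a was not called without LKO HFD replicate 3 (adjusted p = 0.146) or in 4 other such fits. Avil shares exon sequence with Tsfm on the opposite strand, and Gm49355 with another locus on its own strand.

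**Figure D5:**
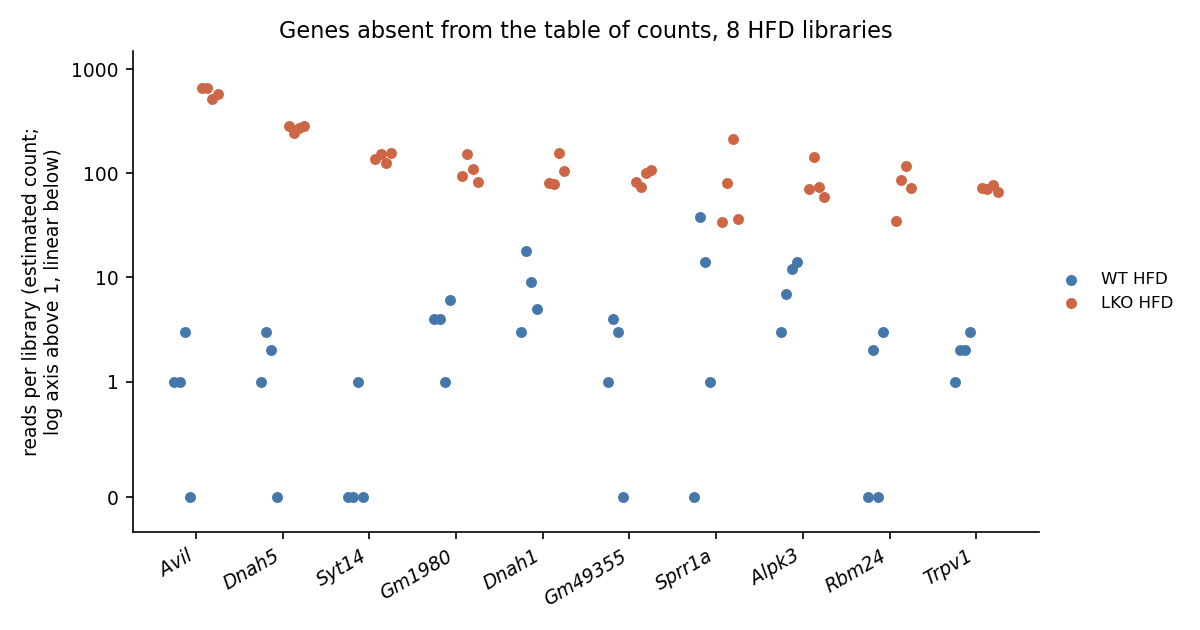
Counts per library (vertical axis, logarithmic above 1 and linear below) of the 10 genes with the highest LKO HFD mean among those missing from the table of counts, read in all LKO HFD libraries and called. Each point is 1 of the 4 WT HFD or 4 LKO HFD libraries; for Avil the WT libraries hold 0 to 3 counts and the LKO libraries 511 to 661.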

How the data were processed

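Liver RNA for 16 libraries was extracted with TRIzol, selected for poly(A) and sequenced as paired reads, per the labels' protocols. Bowtie2, DESeq2 and mm10 are named, without roles, per the submitters' processing notes; the counting tool and annotation are not given in the sources used here. The authors deposited estimated counts per gene (15119 genes; 51.1% of values whole, tolerance 1e-06), which were rounded to whole numbers. The authors deposited a wider table of 35712 genes that also holds estimated counts; its chow columns sit 1 row too low and were moved up, after which all 15119 shared genes matched. Acat2 differs between the tables in WT HFD replicate 2 (8555 and 2296.5 counts) and is not interpreted.

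Tests used edgeR 4.0.16 (R 4.3.3): TMM scaling, filterByExpr, a mean per group over all 16 libraries and robust quasi-likelihood tests, with Benjamini-Hochberg adjustment over all 14434 genes tested. The standard error is the log2 fold change divided by the square root of F. Positions are from GENCODE M21 (GRCm38). The scripts were tested on simulated data. Alternatives were DESeq2 1.42.0, limma 3.58.1 voom, other scalings, filters, tables and samples, a fold minimum of 1.5, a replicate block, and each library left out.

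The text names Arglu1, then 15 genes each way with the largest called log2 fold changes (no overlap between groups, a mean of 1 CPM or more in a group), the 10 largest differences in CPM, up to 10 interaction genes, up to 4 members of each list by p, and 10 genes of the wider table. Other genes were chosen after their values were seen, and some results are not reported here. The comparison and lists were chosen with earlier results of these data known.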

Additional observations from a re-analysis of the deposited data

Results flagged for a closer look

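Single libraries stood apart from the other 3 of their group in 25 of 430 groups of 4 looked at by Dixon's 95% critical value; chance alone gives about 1 in 20. Values are in CPM. WT HFD replicate 2 was high for Oas1a (10.97), Ifit1 (25.13), Isg15 (21.59), Fasn (6275) and Acat2 (420.7). The Acat2 count of that library was deposited as both 8555 and 2296.5, and is not interpreted. WT HFD replicate 1 was high for Serpina4-ps1 (9.655), Rsph4a (7.253), Phlda3 (3.218) and Vnn1 (106.3), and low for Sf3a1 (28.24) and Vwf (12.59). WT HFD replicate 3 was low for Nr1i2 (58.09), and was the only WT HFD library with a count of Syt14 (0.04034).

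LKO HFD replicate 3 was high for Peg10 (16.71), Hnrnpa3 (108.4), Eps8l2 (130.1), Nfe2l2 (150.1), Ifit3 (159.8), Rsad2 (75.13) and Fasn (2417), and low for Gm10925 (1216) and Slc10a1 (281.7). LKO HFD replicate 1 was low for Nr1i2 (36.91). LKO HFD replicate 4 was high for Serpina4-ps1 (0.2473) and low for Apoa4 (2755), where the other 3 lay within 2791 to 2797.

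In the main fit, edgeR's test of the interaction called Adam11 (-1.66), Lepr (-1.76) and Ppp4r4 (0.81), with an adjusted p of 0.0413 each. Values are the log2 difference on HFD minus that on chow. No gene was called with a replicate block, or when any 1 WT HFD library was left out.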

How the results depend on the processing

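Against 2583 genes called on HFD, limma voom with sample quality weights called 4511 (2449 higher, 2062 lower), and a fold minimum of 1.5 left 441 (367 higher, 74 lower). With a replicate block the number was 2330 (1387 higher, 943 lower). Same-numbered WT and LKO libraries did not deviate together (correlations -0.0311, -0.196, 0.122 and 0.0038, against -0.257 to 0.286 for differently numbered ones). These correlations cannot show whether same-numbered libraries shared a batch or preparation. Leaving out 1 HFD library gave 1977 to 2320 calls, 1191 to 1388 higher and 786 to 943 lower. The interaction count of 3 became 48 with DESeq2, 16 with voom, 0 with a mean count of at least 50 and 0 with the replicate block, and ran from 0 to 9 when 1 library was left out; the cause was not tested. The share of calls that were higher was 57.7%, and 53.7% to 56.7% under DESeq2, voom and the other scalings. Of 198 named genes called, 165 kept their call under every alternative but the fold minimum, 86 also under that, and none reversed. Of 2160 list counts under an alternative, 1844 stayed within 1.5 times. Genes with few counts in WT are limited by depth.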
